A study of Rattus norvegicus with 6 samples.

Results

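The carriers described here move glucose, lactate and other monocarboxylates, and organic ions across cell membranes. They were chosen by name alone, as every row whose name before the colon began with Slc2a, Slc5a, Slc16a or Slc22a and a digit, or with Slco, with Slc5a3 left out. This gave 64 of the 27321 features in the table, with 11 in the GLUT family (Slc2a), 10 in the SGLT family (Slc5a), 11 in the monocarboxylate transporter or MCT family (Slc16a) and 32 organic ion carriers, made up of 18 Slc22a and 14 Slco features. Of the 64, 59 were single genes and 5 were features whose name joins neighbouring genes with a comma. RNA was measured by sequencing in the IM tip, the terminal part of the kidney inner medulla, of male Sprague-Dawley rats bought at 3 months of age and about 150 g. The 3 STZ rats received streptozotocin, which destroys the insulin-producing cells of the pancreas, at 62.5 mg/kg in citrate buffer through the tail vein, and the 3 control rats received vehicle by the same route. Tissue was taken on day 15 after the injection, and the diabetic state of the STZ rats had been checked by their blood glucose.

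GLUT proteins let glucose, fructose and related sugars pass down their gradient, whereas SGLT proteins use the sodium gradient to carry sugars against theirs, and the same family also holds carriers of iodide, vitamins, choline and short monocarboxylates. The best known MCT proteins carry lactate, pyruvate or ketone bodies together with a proton and need a chaperone, basigin (Bsg) or embigin (Emb), to reach the membrane, while other family members carry aromatic amino acids or creatine. The Slc22a family holds organic cation, carnitine and organic anion transporters, and the Slco family holds the organic anion transporting polypeptides. In the kidney most of the organic ion carriers and the SGLT proteins for glucose are known from the proximal tubule, which does not run through the IM tip, whereas cells of the inner medulla are known for their reliance on glycolysis.

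The 6 libraries held between 3412311 and 5575171 reads on genes, and 1 read was worth between 0.763 and 1.11 normalized counts, the unit of all levels below. Levels are not divided by gene length, so they compare libraries and not genes. Wherever 3 values of a group are listed, they stand in the order of replicates 1, 2 and 3. The column headings give the 3 control libraries the same sequencing lane and each STZ library a different lane, so lane and treatment cannot be told apart. Collecting duct markers, of which 10 of 12 were found, were present in all libraries. They summed to between 11216 and 19265 in control and between 19151 and 36075 in STZ, which overlap. Without Aqp3 the sums were 6488 to 9479 in control and 9440 to 13961 in STZ, which also overlap. Of the 10, 4 had all STZ values above all control values, 2 had all below, and 0 passed the test described below. The 835 olfactory receptor genes, which serve here as a measure of background, had a 95th percentile of 2.05, 6.33 and 10.02 in the control rats and of 1.86, 5.93 and 9.03 in the STZ rats. All values are of whole tissue, in which fewer cells of a type and less RNA per cell cannot be told apart.

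Of the 64 carriers, 43 reached a mean of 5 across all libraries and were tested with limma on log2(normalized count + 1), together with every other feature past that minimum. In STZ rats Slc16a7, which encodes the high-affinity lactate and pyruvate carrier MCT2, and Slc22a2, which encodes the organic cation transporter OCT2, fell, and no carrier rose. These 2 calls at an adjusted p under 0.05 were 4.65% of the tested carriers, beside 2.10% of the 13486 features tested in all. Both were lower in STZ, and calls lower in STZ made up 0.927% of all features tested. At an unadjusted p under 0.05 there were 5 carriers and 1988 of all features tested. The 3 control and 3 STZ values did not overlap in 9 carriers, of which 8 were lower and 1 was higher in STZ. That share of 20.9% stood beside 20.3% of all features, while lower values without overlap were found in 18.6% of the tested carriers and 10.3% of all features. The log2 fold change (STZ over control) was negative in 24 carriers and positive in 19, with a median of -0.16 beside 0.0056 for all features tested. The share at an unadjusted p under 0.05 was 11.6% of the carriers and 14.7% of all features.

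**Figure D1:**
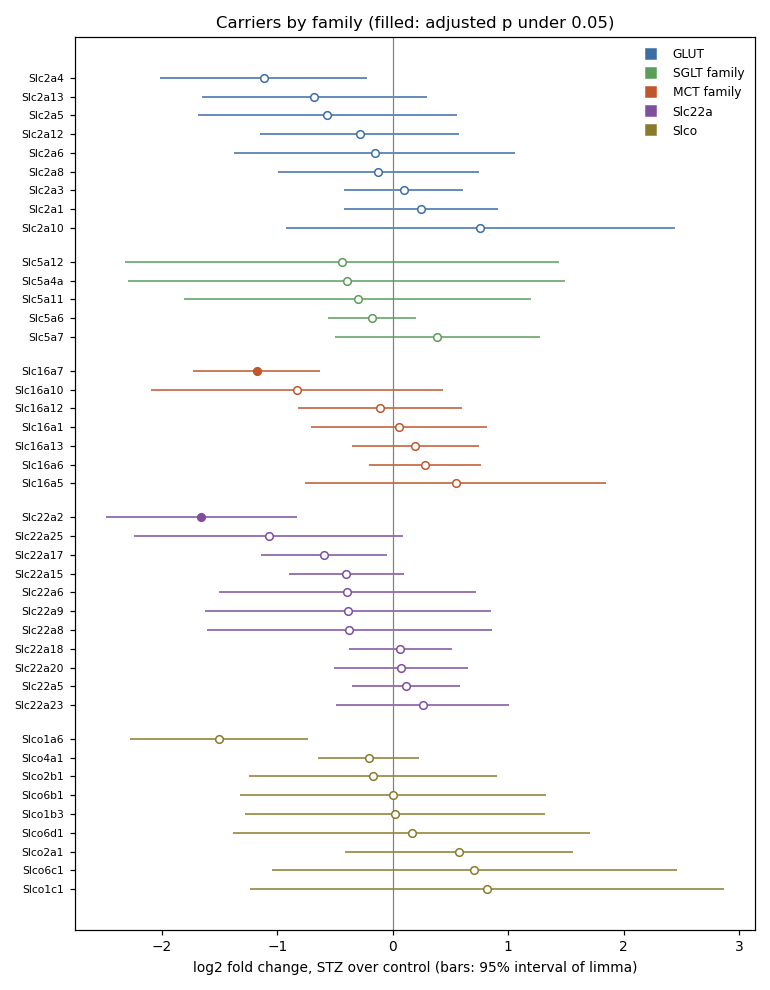
Log2 fold change (STZ over control, x axis) of 41 of the 43 tested carriers, ordered by family and value, with the 95% interval of limma as bars and filled points for an adjusted p under 0.05. Slc16a7 (-1.18) and Slc22a2 (-1.66) are the filled points, Slco1a6 (-1.51) lies close to them, and the intervals of all but 5 carriers include 0.

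The windows before the transcription start of the 2 genes that fell and of Slco1a6, the carrier next to them in the order of p, are shown for context. They hold the 250 bases 5' of the RefSeq start on the gene's own strand in the GRCr8 assembly, which is not the assembly used for the counts. All 3 genes lie on the minus strand, with the windows at chr7:63040399-63040648 for Slc16a7, chr1:50711020-50711269 for Slc22a2 and chr4:176839033-176839282 for Slco1a6. Capitals mark matches, on either strand, to 6 short motifs, namely the HNF1 motif GTTAAT, the nuclear receptor motif AGGTCA, the steroid receptor motif AGAACA, the hypoxia factor core ACGTG, the CCAAT box CCAAT and the GC box GGGCGG.
Slc16a7: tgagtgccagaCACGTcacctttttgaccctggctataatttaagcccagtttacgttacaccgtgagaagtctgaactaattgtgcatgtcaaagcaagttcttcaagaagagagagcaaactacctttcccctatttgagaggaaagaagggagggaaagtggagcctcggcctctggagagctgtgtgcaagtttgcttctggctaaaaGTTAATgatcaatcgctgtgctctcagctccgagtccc
Slc22a2: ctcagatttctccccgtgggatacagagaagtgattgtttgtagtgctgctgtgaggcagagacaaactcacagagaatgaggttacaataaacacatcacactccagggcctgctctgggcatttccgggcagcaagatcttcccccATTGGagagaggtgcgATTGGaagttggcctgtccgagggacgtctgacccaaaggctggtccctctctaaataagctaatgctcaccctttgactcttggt
Slco1a6: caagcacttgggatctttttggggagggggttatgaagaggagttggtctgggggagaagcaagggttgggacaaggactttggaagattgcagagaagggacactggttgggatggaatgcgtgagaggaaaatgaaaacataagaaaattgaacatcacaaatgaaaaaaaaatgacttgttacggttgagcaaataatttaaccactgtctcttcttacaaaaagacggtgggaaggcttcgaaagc
The Slc16a7 window held GTTAAT, its first base at -38 from the start, and the reverse strand of ACGTG at -239. The Slc22a2 window held CCAAT on the reverse strand at -102 and -86, and the Slco1a6 window held none of the 6. Over all 33469 RefSeq windows of the same length, GTTAAT was found in 6.45%, AGGTCA in 14.1%, AGAACA in 17.5%, ACGTG in 16.6%, CCAAT in 34.0% and GGGCGG in 30.5%. The GC content was 47.2% for Slc16a7, 51.2% for Slc22a2 and 43.2% for Slco1a6, beside a median of 51.2% over all windows. A match here is a description of letters only, and the motifs were not found to be shared by the 3 genes.

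GLUT carriers did not pass the test in either direction, with 0 of 9 tested genes called by limma, edgeR or DESeq2 and 1 of the 9 at an unadjusted p under 0.05. Their median log2 fold change was -0.16, and 6 of the 9 values were negative. DESeq2 gave no adjusted p for Slc2a5, Slc2a6, Slc2a8 and Slc2a10. Slc2a1 encodes GLUT1, the basal glucose carrier of many cell types. It had 157, 127 and 95.7 normalized counts in the control rats and 221, 94.95 and 153 in the STZ rats. The groups overlapped, with the highest and the lowest value both among the STZ rats, and the log2 fold change of 0.25 had a 95% interval from -0.42 to 0.91 (adjusted p = 0.823).

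Slc2a4 encodes GLUT4, the insulin-responsive carrier of muscle and fat. It had 53.3, 43.5 and 36.7 normalized counts in the control rats and 36.2, 20.8 and 10.04 in the STZ rats. The groups did not overlap, but control replicate 3 and STZ replicate 1 were nearly equal. Its group means were 44.5 ± 8.34 in control and 22.3 ± 13.2 in STZ (SD, n = 3 each), and the log2 fold change of -1.12 ± 0.41 (SE) did not pass limma's threshold, with an adjusted p of 0.214. In none of the alternative analyses run for it did the adjusted p go under 0.0752. Of the adipocyte markers 5 of 6 were found, Lep had no read in any library, Cfd was at or under 3 reads in all 6, and 0 of the 3 tested passed. The adipocyte markers summed to between 404 and 1061 in control and to between 469 and 616 in STZ. Most of that was Fabp4, without which the sums were 12.3 to 17.8 in control and 10.2 to 18.1 in STZ. The part of these markers in the Slc2a4 values was not tested.

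Slc2a3 encodes GLUT3, a high-affinity glucose carrier best known from neurons. It had 45.1, 39.7 and 56.8 normalized counts in the control rats and 50.1, 48.5 and 51.2 in the STZ rats. The STZ values lay inside the control range, and the log2 fold change was 0.10 with an interval from -0.42 to 0.61 (adjusted p = 0.927 by limma). Among the remaining tested GLUT genes all groups overlapped. Slc2a12 (GLUT12) had a log2 fold change of -0.29, Slc2a13, the proton-coupled myo-inositol carrier, of -0.68, Slc2a5, the fructose carrier GLUT5, of -0.57, Slc2a8 of -0.13, Slc2a6 of -0.16 and Slc2a10 of 0.76. Their adjusted p-values lay between 0.552 for Slc2a13 and 0.953 for Slc2a6. Slc2a2, which encodes the GLUT2 of liver and beta cells, had between 2 and 8 reads per library, and Slc2a9, a urate carrier, between 0 and 4, so neither was tested.

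Genes that act beside these sugar carriers did not pass the test either. Of 13 such genes, 10 were found, 7 were tested and 0 were called by limma, edgeR or DESeq2, with 0 at an unadjusted p under 0.05 by limma. Akr1b1, the aldose reductase that turns glucose into sorbitol, had a log2 fold change of 0.07 (95% interval -0.82 to 0.97). The median over the 7 tested genes was 0.03, with 3 of the 7 values negative.

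SGLT family members were low or did not pass. Of the 10, 5 were tested and 0 were called by limma, edgeR or DESeq2. By limma 0 had an unadjusted p under 0.05, and the median log2 fold change of the 5 was -0.30, with 4 of 5 values negative. DESeq2 gave no adjusted p for Slc5a4a, Slc5a11 and Slc5a12. Slc5a1, which encodes the glucose carrier SGLT1, had between 0 and 7 reads in each library and in no library exceeded the olfactory percentile. Slc5a2 (SGLT2) has no row of its own under the naming rule, since it is merged with RGD1310127. That merged row had 35.9, 43.5 and 57.9 normalized counts in the control rats and 39.9, 48.5 and 34.1 in the STZ rats. The groups overlapped (log2 fold change -0.15, adjusted p = 0.895), and the reads cannot be given to either gene.

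Slc5a6, the sodium-dependent multivitamin carrier of biotin and pantothenate, was well covered. It had 316, 300 and 348 normalized counts in the control rats and 285, 298 and 268 in the STZ rats. The groups did not overlap, though control replicate 2 and STZ replicate 2 almost met. Means were 321 ± 24.8 in control and 284 ± 14.9 in STZ (SD, n = 3 each). The log2 fold change of -0.18 had an interval from -0.56 to 0.20 and an adjusted p of 0.736 by limma. That interval also draws on the spread of other features at a like level, through the prior variance. Slc5a7, the choline carrier of cholinergic nerve endings, had 11.3, 10.7 and 23.4 in the control rats and 13.9, 23.7 and 20.1 in the STZ rats. These groups overlapped, giving a log2 fold change of 0.39 (adjusted p = 0.768).

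Slc5a4a is the gene that RefSeq lists as Slc5a4, related to the glucose-sensing SGLT3. It had 4.10, 6.10 and 22.3 normalized counts in the control rats and 0.929, 10.9 and 15.1 in the STZ rats. Replicate 1 was lowest in both groups, as it also was for the olfactory percentile, and the groups overlapped with a log2 fold change of -0.40 ± 0.86 (SE). Slc5a11, a myo-inositol carrier, had a log2 fold change of -0.30, and Slc5a12, the low-affinity sodium-coupled lactate carrier, one of -0.44, with overlapping groups in both. Slc5a5 (iodide), Slc5a8 (the high-affinity sodium-coupled monocarboxylate carrier), Slc5a9 and Slc5a10 had means under 5 and at most 8 reads in any library. The STZ values of Slc5a5 lay below its control values, at 0 to 7 reads over the 6 libraries, and it was not tested.

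The MCT family held 1 of the 2 calls. Slc16a7 spans chr7:65210151-65313572 on rn4. It had 254, 277 and 264 normalized counts in the control rats and 162, 121 and 80.3 in the STZ rats. The control values lay close together, every STZ value was well below them, and STZ replicate 3 was the lowest. Its mean was 265 ± 11.4 in control and 121 ± 41.1 in STZ (SD, n = 3 each), which put STZ at 0.457 of control, and the log2 fold change was -1.18 ± 0.25 (SE), at an adjusted p of 0.0383 by limma. The call held in 11 of 17 alternatives. It was lost without the filter on low values (adjusted p = 0.250), without the intensity trend (0.183), and when control replicate 1 (0.0898), control replicate 2 (0.164), STZ replicate 2 (0.118) or STZ replicate 3 (0.0911) was left out, while the fold change stayed between -1.42 and -0.91.

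Beside Slc16a7, the summed markers of the thick ascending limb and distal tubule, segments above the IM tip, were lower in every STZ library than in any control library. Of 7 such markers 5 were found and tested, 2 fell by limma and all 5 log2 fold changes were negative. None of the 5 was at 0 in all libraries. They summed to 1164, 1417 and 1948 in the control rats and to 626, 391 and 240 in the STZ rats, and still did not overlap without Umod (860 to 1007 in control and 190 to 551 in STZ). In the STZ rats these sums and Slc16a7 had the same order, with replicate 1 highest and replicate 3 lowest. In control the sums spread more than Slc16a7, but this rested mainly on Umod. Without it the control sums were 883, 860 and 1007. The part of these markers in the Slc16a7 result was not tested.

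Slc16a13 and Slc16a6 were the next best covered members of the family. Slc16a13 (MCT13) had 47.2, 48.8 and 66.8 normalized counts in the control rats and 57.6, 77.1 and 52.2 in the STZ rats, with overlapping groups and a log2 fold change of 0.19 (adjusted p = 0.833 by limma). Slc16a6 (MCT7), known as a ketone body carrier of liver, had 45.1, 54.2 and 60.1 in the control rats and 65.9, 65.3 and 61.2 in the STZ rats. It was the only tested carrier with all 3 STZ values above all 3 control values, though control replicate 3 and STZ replicate 3 differed little. Its log2 fold change of 0.28 (95% interval -0.21 to 0.76) had an adjusted p of 0.652.

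Slc16a1, which encodes the broadly expressed MCT1, lay between 32.04 and 47.9 normalized counts in control and between 23.7 and 59.2 in STZ, and its log2 fold change was 0.05 (95% interval -0.71 to 0.81). Slc16a3, which encodes the lactate exporter MCT4 of glycolytic cells, had 0 to 5 reads per library. Slc16a12, a creatine carrier, had a log2 fold change of -0.11, and Slc16a5 (MCT6) one of 0.54. Slc16a10, the aromatic amino acid carrier TAT1, had a value of -0.83. All of these groups overlapped, with adjusted p-values of at least 0.583. Slc16a14 and Slc16a8 were at or under 3 reads in all libraries. The median log2 fold change of the 8 tested family members was 0.12, with 5 of the 8 values positive.

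Of 14 genes around monocarboxylate use, 10 were found and tested and 0 passed by limma, edgeR or DESeq2, with 3 at an unadjusted p under 0.05 by limma. Bsg, the chaperone of MCT1 and MCT4, had 740, 1004 and 491 normalized counts in the control rats and 941, 348 and 678 in the STZ rats, with wide overlap. Emb, the chaperone that MCT2 is known to use, had 72.8, 84.7 and 44.5 in the control rats and 46.4, 24.7 and 32.1 in the STZ rats. Control replicate 3 lay within the STZ range of Emb, and its log2 fold change of -0.94 ± 0.32 (SE) came with an adjusted p of 0.169 by limma.

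Pdk1 encodes a kinase that shuts pyruvate dehydrogenase down. It had 9.23, 9.92 and 18.9 normalized counts in the control rats and 34.4, 20.8 and 38.1 in the STZ rats. All STZ values lay above the control values, and the log2 fold change of 1.25 ± 0.39 (SE) came with an adjusted p of 0.139. Brp44l, the older name of the mitochondrial pyruvate carrier subunit Mpc1, had 6910, 5378 and 5171 in the control rats and 4418, 4488 and 3268 in the STZ rats, which did not overlap (log2 fold change -0.52, adjusted p = 0.300). Ldha, the lactate dehydrogenase subunit that favours lactate production, had a log2 fold change of 0.41 and an adjusted p of 0.510.

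**Figure D2:**
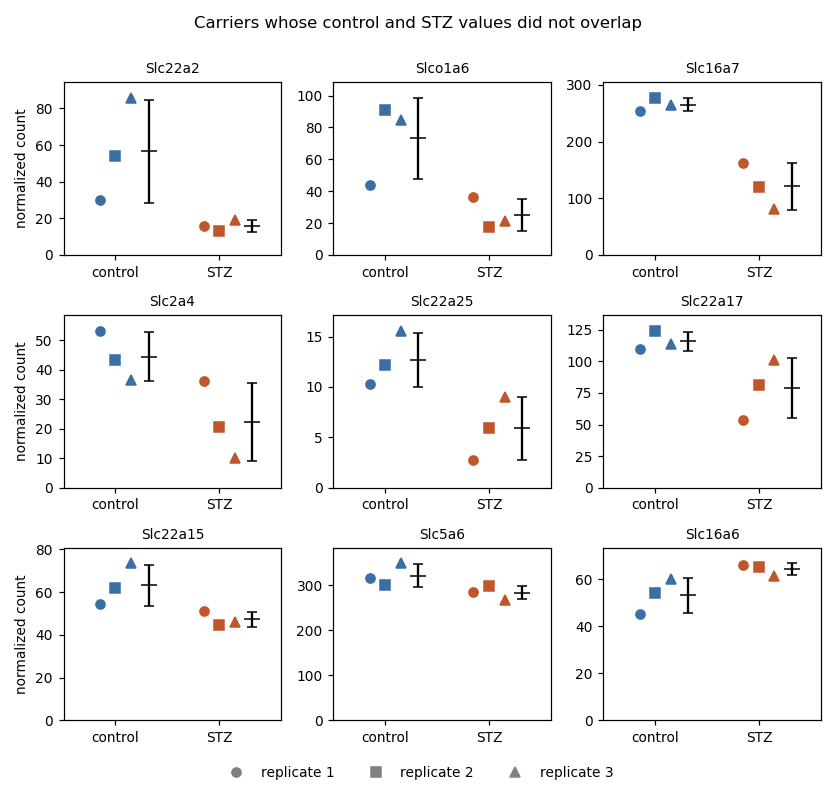
Normalized counts (y axis, from 0) of the 9 tested carriers whose control and STZ values did not overlap, with a point per rat and the mean ± SD of each group in black. The STZ mean is 0.281 of the control mean for Slc22a2, 0.342 for Slco1a6 and 0.457 for Slc16a7, but 0.883 for Slc5a6, and only Slc16a6 is higher in STZ.

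Among the organic cation and carnitine carriers, Slc22a2 fell. The gene spans chr1:42395675-42442847 on rn4. It had 29.7, 54.2 and 85.7 normalized counts in the control rats and 15.8, 12.9 and 19.1 in the STZ rats. Every STZ value was below every control value, and the control rats spread widely. Means were 56.5 ± 28.1 in control and 15.9 ± 3.11 in STZ (SD, n = 3 each), which put STZ at 0.281 of control, and the log2 fold change was -1.66 ± 0.38 (SE), at an adjusted p of 0.0499 by limma. The p-value lay at the threshold, and the call held in 6 of 17 alternatives. With pseudocounts of 0.5 and 5 it was 0.0501 and 0.0512, with a minimum mean of 1 it was 0.0593, and it was 0.296 without a filter, 0.0852 at equal library totals and 0.179 without the trend. Leaving out control replicate 2 (0.200), control replicate 3 (0.0937), STZ replicate 1 (0.0980), STZ replicate 2 (0.165) or STZ replicate 3 (0.0830) also ended the call, with fold changes between -2.05 and -1.30 over all alternatives.

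Other genes of cation and carnitine transport did not pass. Slc22a3 (OCT3), 247 kb from Slc22a2, had at most 3 reads in any library. Slc47a1, which encodes the MATE1 exchanger that passes organic cations on into urine, had a log2 fold change of 0.34 (adjusted p = 0.847). Slc22a5, the carnitine carrier OCTN2, lay between 61.5 and 82.4 in control and between 74.2 and 82.6 in STZ, with a log2 fold change of 0.12 (95% interval -0.35 to 0.58). OCT2 RNA fell and OCTN2 RNA did not pass, but the difference between them was not tested.

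Organic anion and orphan members of Slc22a gave 3 further genes without overlap, none of which passed. Slc22a17, the receptor for the iron-binding protein lipocalin 2, had 110, 124 and 114 normalized counts in the control rats and 53.9, 81.1 and 101 in the STZ rats. Its control values were close together and its STZ values were spread below them, with a log2 fold change of -0.59 (95% interval -1.14 to -0.05, adjusted p = 0.287 by limma). Slc22a15, a carrier of zwitterions such as carnitine, had 54.3, 61.8 and 73.5 in the control rats and 51.1, 44.5 and 46.2 in the STZ rats. Its log2 fold change was -0.40 ± 0.23 (SE), at an adjusted p of 0.457. Slc22a25 had 10.3, 12.2 and 15.6 in the control rats and 2.79, 5.93 and 9.03 in the STZ rats. Its values ran near the olfactory percentile, exceeded it in 4 of 6 libraries, and gave a log2 fold change of -1.08 ± 0.53 (SE), at an adjusted p of 0.387.

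Slc22a18, an imprinted gene of uncertain substrate, was among the 3 organic ion carriers with the highest levels. It had 249, 335 and 242 normalized counts in the control rats and 259, 336 and 266 in the STZ rats. The groups overlapped over nearly their whole range, with a log2 fold change of 0.07 and an interval from -0.38 to 0.51. Slc22a6 and Slc22a8, which encode the anion carriers OAT1 and OAT3 of the proximal tubule, lay between 8.20 and 32.3 and between 5.13 and 16.7 in control, and between 9.29 and 21.1 and between 5.02 and 11.9 in STZ. Their log2 fold changes were -0.39 and -0.37, each with an SE over 0.50. Slc22a20 (OAT6) had a log2 fold change of 0.07, Slc22a23 one of 0.26 and Slc22a9 one of -0.38, a symbol that RefSeq lists as a synonym of both Slc22a24 and Slc22a25. Slc22a7 (OAT2), Slc22a12 (the urate exchanger URAT1) and Slc22a13 had at most 6 reads in any library.

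Of the Slco carriers 9 of 14 were tested, with a median log2 fold change of 0.02. Limma and edgeR called 0, DESeq2 called 1, and 1 had an unadjusted p under 0.05 by limma. DESeq2 gave an adjusted p only for Slco1a6, Slco2a1 and Slco4a1. Slco1a6 came closest. It spans chr4:179688188-179723995 on rn4 and had 44.1, 90.8 and 84.6 normalized counts in the control rats and 36.2, 17.8 and 21.1 in the STZ rats. The groups did not overlap, and the nearest values were those of replicate 1 in each. Means were 73.1 ± 25.4 in control and 25.0 ± 9.82 in STZ (SD, n = 3 each), and the log2 fold change was -1.51 ± 0.35 (SE), at an adjusted p of 0.0540. It passed in 5 of 17 alternatives, namely with a minimum mean of 20 (0.0383), after quantile normalization (0.0409), by DESeq2 (0.00805), without control replicate 1 (0.0381) and without STZ replicate 1 (0.0365). Slco1a5, its close relative 66.2 kb away, had 2 to 6 reads per library. Reads shared by the 2 sequences would be lost from counts of uniquely mapped reads, so both levels are uncertain.

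Slco4a1, the thyroid hormone carrier OATP4A1, had the most counts of all carriers. It had 2376, 2909 and 2188 normalized counts in the control rats and 2361, 2243 and 1850 in the STZ rats. STZ replicates 1 and 2 lay within the control range, and the log2 fold change of -0.21 had an interval from -0.65 to 0.23 (adjusted p = 0.730 by limma). Slco2a1, the prostaglandin carrier, lay between 16.8 and 22.6 in control and between 13.9 and 58.4 in STZ, with a log2 fold change of 0.57 ± 0.45 (SE). Slco2b1, with a log2 fold change of -0.17, Slco1c1, a thyroxine carrier, with 0.82, and Slco1b3, the gene that RefSeq lists as the liver carrier Slco1b2, with 0.02, had overlapping groups. The Slco6 genes of testis had log2 fold changes of 0.0032 for Slco6b1, 0.71 for Slco6c1 and 0.16 for Slco6d1. Reads shared between similar Slco6 sequences would also be lost, so these counts are uncertain, but how alike the sequences are was not tested. The sign of Slco1b3 and Slco6b1 turned under other scalings or tools. Slco4c1 had 1 to 7 reads per library.

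Proximal tubule markers stand beside Slc22a2 and Slco1a6. Of 15 markers 9 were found and 8 tested, only Kap fell by limma, and 6 of the 8 log2 fold changes were negative. By limma 3 of the 8 had an unadjusted p under 0.05. In 2 of the 8 all STZ values lay below all control values, and in 0 above. None of the 9 was at 0 in all libraries. They summed to 365, 477 and 600 in the control rats and to 296, 176 and 227 in the STZ rats. The separation of the sums rested on Kap, a kidney androgen-regulated gene, though Kap was not the only marker with lower values. Without it the sums overlapped, at 191, 281 and 317 in the control rats and 231, 155 and 172 in the STZ rats. The order of the sums matched that of Slc22a2 in the control rats but not in the STZ rats, and that of Slco1a6 in the STZ rats but not in the control rats. The part of these markers in either carrier was not tested.

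**Figure D3:**
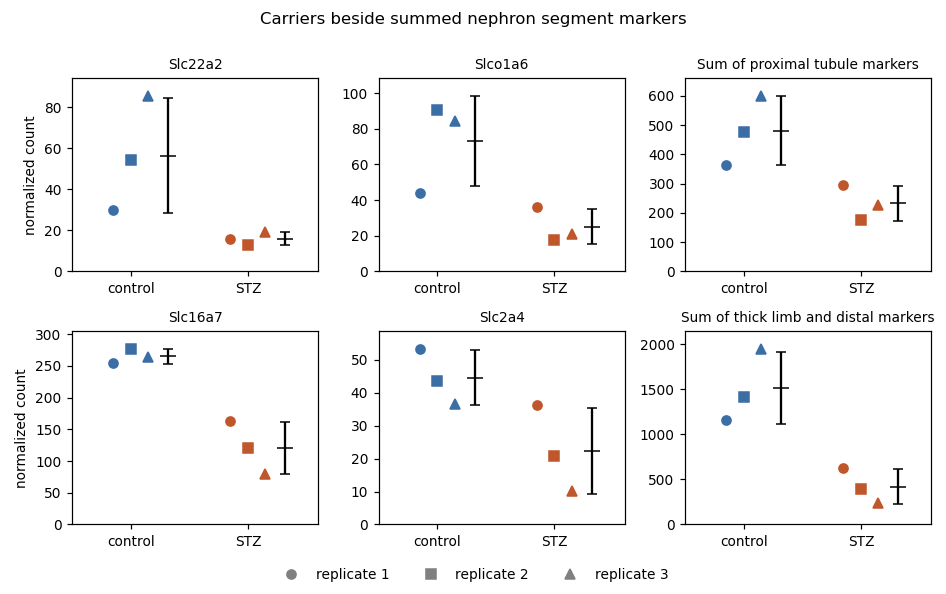
Normalized counts (y axis, from 0) of Slc22a2, Slco1a6, Slc16a7 and Slc2a4 beside the summed counts of the proximal tubule and the thick limb and distal markers, with a point per rat and the mean ± SD of each group in black. All 6 panels show the 3 STZ values below the 3 control values, but the proximal sums (365 to 600 in control and 176 to 296 in STZ) overlap once Kap is left out (191 to 317 and 155 to 231).

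Genes that work with the organic ion carriers included 2 calls. Of 20 listed, 17 were found and 14 tested, while 2.10% of all features tested passed. The list was fixed with earlier results of these data known, so the number of calls in it is not independent of them. Slc13a2, the sodium-coupled citrate and succinate carrier NaDC1, rose from 35.9, 39.7 and 22.3 normalized counts in the control rats to 196, 255 and 237 in the STZ rats. The STZ values lay far above the control values, 7.03 times on average, with a log2 fold change of 2.81 ± 0.25 (SE), at an adjusted p of 0.000341 by limma. Slc9a3r2, the scaffold NHERF2 that anchors transporters at the membrane, fell from 613, 667 and 585 in the control rats to 227, 318 and 259 in the STZ rats. Both groups were tight, and the log2 fold change was -1.22 ± 0.19 (SE), at an adjusted p of 0.00888. Slc13a2 passed in 17 of 17 alternatives and Slc9a3r2 in 14 of 17, with an adjusted p of 0.0765 without a filter, 0.109 without the trend and 0.0537 without control replicate 2. Urothelial markers, of which 5 of 7 were found and tested and 2 rose, summed to between 85.4 and 132 in control and between 440 and 517 in STZ, or without Upk3a to between 57.2 and 84.1 and between 108 and 150. Endothelial markers, of which 9 of 10 were found and tested, 1 rose and 2 fell, with 4 of the 9 log2 fold changes negative, summed to between 8102 and 10030 in control and between 4854 and 5378 in STZ. That gap rested on Emcn, without which the sums overlapped, at 2918 to 3648 in control and 2817 to 3375 in STZ. None of either list was at 0 in all libraries, and their part in the values of Slc13a2 and Slc9a3r2 was not tested.

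Slc13a3 (NaDC3), which supplies the dicarboxylates that OAT1 and OAT3 exchange, did not pass. It had 6.15, 13.7 and 28.9 normalized counts in the control rats and 4.64, 5.93 and 3.01 in the STZ rats, with a log2 fold change of -1.44 ± 0.61 (SE), at an adjusted p of 0.295. Abcc3, the efflux pump MRP3, had 32.8, 32.04 and 31.2 in the control rats and 51.1, 46.5 and 40.2 in the STZ rats. Nr1i3, the xenobiotic receptor CAR, had 13.3, 13.0 and 8.90 in the control rats and 29.7, 18.8 and 22.1 in the STZ rats. Both had all STZ values above all control values, with log2 fold changes of 0.50 (adjusted p = 0.370) and 0.94 (adjusted p = 0.233). Slc47a2 did not overlap either but had a mean of 1.197.

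Many carriers lay near background. Of the 64, 26 exceeded the olfactory percentile in all 6 libraries. The other 17 tested carriers did not exceed it in at least 1 library, and not all of them were low throughout. Slc16a5 and Slc2a13, with means of 39.4 and 21.5 normalized counts, each exceeded it in 5 of 6 libraries. The 17 had library medians of 4.10, 9.15 and 13.4 normalized counts in the control rats and 3.71, 7.91 and 8.03 in the STZ rats. These medians were lowest in replicate 1 of both groups, as was the olfactory percentile. The 21 untested carriers had means between 0.127 and 4.41 and no value above 8.90, and 8 of them were at or under 3 reads in all libraries. That floor covers counting error only, since the cDNA was amplified without molecular identifiers. The 5 joined features were all among these 8.

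**Figure D4:**
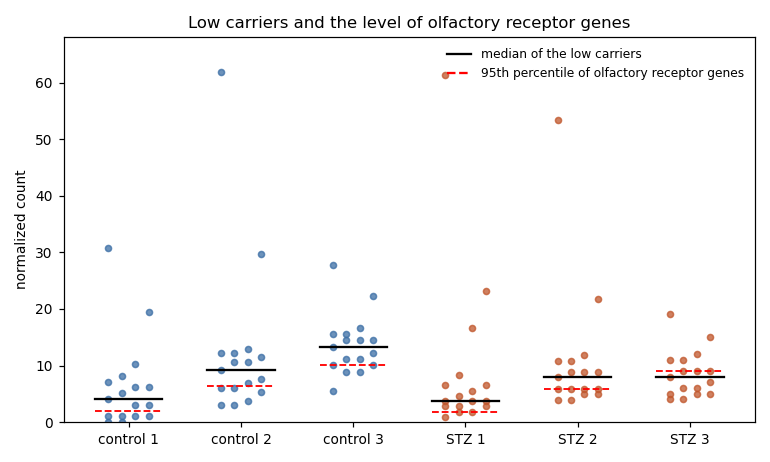
Normalized counts (y axis) of the 17 tested carriers that did not exceed the olfactory percentile in all 6 libraries, with a point per carrier and a column per library (x axis), the median as a black line and the olfactory percentile as a red dashed line. In the control libraries the median runs from 4.10 in replicate 1 to 13.4 in replicate 3, and the dashed line from 2.05 to 10.02.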

How the data were processed

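IM tip RNA of 3 control and 3 STZ rats was made into cDNA with a SMARTer PCR kit and sequenced on a HiSeq2000. The authors aligned reads to rn4 with STAR 2.3.1t, counted uniquely mapped reads per gene (Ensembl annotation) and normalized them with DESeq 1.16.0. The program used for counting and its strand setting are not given in the sources used here. The deposited signal is therefore a normalized count, a feature's reads over the size factor of its library. Coordinates are those of rn4 unless GRCr8 is named.

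Each value was a whole multiple of a single step per library (tolerance 0.001 reads, 100% of values), and the recovered reads served only for floors, edgeR 4.0.16 and DESeq2 1.42.0. In R 4.3.3, limma 3.58.1 was applied to log2(normalized count + 1) as the main test, with a prior variance that followed intensity, over features with a mean of at least 5. The Benjamini-Hochberg adjustment ran over all 13486 features tested, with a threshold of 0.05. Fold changes of low genes on this scale can be understated, and can also exceed the ratio of group means where 1 library is near 0. Slco1c1, with 0 in control replicate 1, had a log2 fold change of 0.82 at a ratio of means (not log2) of 1.25. The labels number the libraries within each group and give no litter or batch, and each library is taken here as 1 rat. No count model was the main test, since the values are normalized. DESeq2 gave no adjusted p for some genes with few reads, and these count as not called by it.

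Carriers with a mean of at least 5 are named, except as given below. Values per library are given for carriers that passed, did not overlap between groups, or were among the 3 highest of their group, and for partner genes that passed or did not overlap, with up to 5 others. Per-library values of the merged Slc5a2 row were added outside this rule. Marker sums without the gene whose group means differed most (Aqp3, Kap, Umod, Upk3a, Emcn and Fabp4, named outside the rule) were added after seeing the data. Of the tested carriers, 2 are counted but not reported singly here. Carriers and lists were chosen with earlier results of these data known. Promoter windows were read from RefSeq (GRCr8), in which 43 of the 59 single genes had an entry under the same symbol. The tests were checked on simulated data. These had the same spread beyond counting error for all features and no background that differed between libraries. That check therefore does not show how the tests behave for carriers near background. The 17 alternatives were 2 other pseudocounts, 3 other filters, 2 other scalings, limma without the trend, edgeR, DESeq2, a replicate block and each library left out in turn. Control and STZ rats share replicate numbers in the labels but are different animals.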

Additional observations from a re-analysis of the deposited data

How the results depend on the processing

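Over all features limma called 283, but 98 without a filter, 502 after quantile normalization, 31 without the intensity trend and 597 with DESeq2, and 88 to 352 when a library was left out. Carriers passing numbered 2, but 1 with a pseudocount of 0.5 or 5, with a minimum mean of 1 and at equal library totals, and 0 without a filter or without the trend. With a library left out they numbered 0 to 2, and they were 0 without control replicate 2, STZ replicate 2 or STZ replicate 3. With no filter or no trend, 2460 and 1768 of all features had an unadjusted p under 0.05. A minimum mean of 20, quantile normalization and DESeq2 added Slco1a6 to the same 2 genes. Partner genes passing numbered 2, but 1 without a filter or without the trend, and 1 to 2 with a library left out. Where a call was lost and no value above shows why, the cause was not tested. The share of calls that were higher in STZ was 55.8%, with 48.3% at equal library totals and 50.6% after quantile normalization, and 43.9% without a filter and 67.7% without the trend. The replicate block gave 561 calls over all features and the same 2 carriers. Deviations of same-numbered rats from their group means correlated at 0.57, -0.01 and 0.50 for replicates 1, 2 and 3. The labels pair the rats by number only and do not say what same-numbered rats share, which was not tested.

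Slc16a7, Slc22a2 and Slco1a6 kept their sign under every alternative run. This was not particular to them, since many other named genes did so too, such as Slc2a4, Slc5a6, Slc22a17 and Slc13a2. Carriers far from the threshold were among these, such as Slc22a9 (adjusted p = 0.860 by limma). Signs turned only in genes that did not pass. Slco1b3 was -0.012 with a pseudocount of 5, -0.008 at equal totals, -0.0275 after quantile normalization, -0.18 by edgeR and -0.19 by DESeq2. Slco6b1 was -0.012 with a pseudocount of 5, -0.026 at equal totals, -0.10 by edgeR and -0.11 by DESeq2. With a library left out, log2 fold changes that crossed 0 ranged as follows: Slc16a1 -0.20 to 0.45, Slc16a12 -0.41 to 0.20, Slc16a5 -0.13 to 1.13, Slc22a18 -0.052 to 0.22, Slc22a20 -0.11 to 0.19, Slc22a23 -0.030 to 0.53, Slc22a5 -0.0078 to 0.20, Slc22a6 -0.91 to 0.021, Slc2a1 -0.044 to 0.56, Slc2a12 -0.57 to 0.12, Slc2a3 -0.019 to 0.23, Slc2a6 -0.35 to 0.16, Slc2a8 -0.35 to 0.13, Slc5a11 -0.83 to 0.12, Slc5a12 -1.22 to 0.074, Slc5a4a -0.98 to 0.55, Slco1b3 -0.31 to 0.65, Slco1c1 -0.23 to 1.57, Slco2b1 -0.54 to 0.14, Slco6b1 -0.35 to 0.54, Slco6d1 -0.27 to 0.69, Akr1b1 -0.0345 to 0.18, Bsg -0.56 to 0.16 and RGD1310127+Slc5a2 -0.30 to 0.033. At 3 rats a group, the carriers named with few reads had standard errors of up to 0.93 on the log2 scale, and a log2 fold change of -1.08 in Slc22a25 did not pass.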
